A study of Arabidopsis thaliana with 6 samples.

Results

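The cytochrome P450 genes described here are the 22 genes whose symbol is CYP followed by a number, a letter and a number, and for which a probe set on the array names that gene and no other. They come from 13513 probe sets that name 1 gene, out of 22746 probe sets in all, and no member had a second probe set to choose from. In all, 13356 genes have a probe set naming them alone. The TAIR10.1 gene table holds 225 genes with symbols of this form, so most of the family was not analysed here. The annotation names no gene for 8730 probe sets. A gene counted here or below as lacking a probe set may therefore still be on the array. CYP71 is the family of 18 members, all of subfamily CYP71B. CYP51, CYP78, CYP79 and CYP84 have 1 member each, namely CYP51G2, CYP78A9, CYP79A2 and CYP84A4.

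Rosette leaves of 3-week-old Arabidopsis plants, genotype flu1-1 in ecotype Landsberg erecta, were collected at 3 times. The paraquat groups were sprayed with paraquat in 0.1% Tween and harvested after 1, 2 or 4 h, and the mock groups received the 0.1% Tween alone and were harvested at the same hours. Each group was measured on 1 ATH1 array, with RNA of 2 experiments pooled beforehand and 5 to 6 plants per sample. All 6 groups carry flu1-1, a lesion in a negative regulator of chlorophyll synthesis, were grown in continuous light and were sprayed with the detergent, so the response of wild-type plants was not analysed here. The titles give the dose as 20 mM and the treatment protocol as 20 microM. Paraquat (methyl viologen) diverts electrons from photosystem I to oxygen and forms superoxide.

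P450 enzymes are heme-thiolate monooxygenases that insert 1 atom of oxygen into a substrate with electrons from NADPH, most of them anchored in the endoplasmic reticulum. The number in a symbol is the family, the letter the subfamily and the last number the gene. Plants use them to make sterols, phenylpropanoids, glucosinolates, phytoalexins and hormones, and to oxidise foreign compounds. CYP71B is a large plant subfamily whose best known Arabidopsis gene, PAD3, makes the phytoalexin camalexin and is not among the members. Of 84 P450 genes in 14 lists of assigned roles, 4 had a probe set naming the gene alone, and the listed hormone, camalexin, indole glucosinolate, sterol and carotenoid P450s were not analysed here.

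The signal is a linear fluorescence intensity. A probe set was taken as above the floor where its signal exceeded 86.2, the 40th percentile of all signals. Of the 22 members, 13 passed the floor on at least 1 array. Among these, 9 passed on all 6 arrays, 3 on 5 arrays and CYP71B29 on 3 arrays, and all 13 therefore entered the tests, which asked for 3 arrays. The other 9 were under the floor on every array. Nearest above the floor was CYP71B35, with a highest signal of 121.5, and nearest below it was CYP51G2, with 62.9. Signals of different probe sets do not measure which gene has more transcript, so each gene is compared with itself only. The arrays hold whole leaves, and fewer cells of a type cannot be told apart from less RNA per cell.

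The array medians lay between 157.7 and 162.0. As a check of the tissue, LHCB4.1, a light-harvesting protein of photosystem II, had signals of 15379 to 17756. Of 3 root genes with a probe set naming the gene alone, the root hair expansin EXPA7 passed the floor on 1 array and the others on none. The ratio of 3' to 5' signal of a first GAPDH control was 1.15 on the paraquat array and 1.05 on the mock array of 1 h. On the other 4 arrays it was 0.89 to 1.01. A second GAPDH control had 3' and 5' signals of 9133 and 9123 on the paraquat array of 1 h. On the mock array of 1 h they were 7890 and 8804. The 25S ribosomal RNA control stood at 307.7 on the paraquat array of 1 h and at 243.3 on that of 4 h, and at 92.8 to 130.5 on the others.

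Among the 4 members outside CYP71, 2 were above the floor. CYP78A9, AT3G61880, of a family that controls organ size and itself known for its effect on fruit and seed size, had signals of 101.8, 185.8 and 181.3 in paraquat leaves at 1, 2 and 4 h, against 113, 199 and 300.2 in mock leaves. The mock signal was the higher at each hour, by most at 4 h. CYP84A4 (AT5G04330), which hydroxylates p-coumaraldehyde on the way to arabidopyrones, had 85.9, 125.3 and 104.4 in paraquat leaves, against 98.9, 128.6 and 95.6 in mock leaves. Its groups overlapped, and the highest signal of both treatments was at 2 h. CYP79A2 (AT5G05260), which turns phenylalanine into the precursor of benzylglucosinolate, stayed far under the floor, with a highest signal of 7.10 in paraquat leaves and of 3.43 in mock leaves. CYP51G2 (AT2G17330), a transcribed pseudogene in the gene table and a relative of the sterol demethylase gene CYP51G1, had 62.9, 40.1 and 52.6 in paraquat leaves, against 40.9, 40.3 and 61.7 in mock leaves.

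In CYP71B, 11 of 18 members were above the floor. CYP71B23 (AT3G26210) had signals of 3198, 3694 and 3106 in paraquat leaves at 1, 2 and 4 h, against 3187, 3481 and 3546 in mock leaves. Its highest signal over the 6 arrays was 1.19 times its lowest, the smallest such range of the 22 members. CYP71B6 (AT2G24180), an enzyme that converts indole-3-acetonitrile toward indole-3-carboxylic acid, had 1210, 1235 and 1693 in paraquat leaves, against 1088, 1331 and 1767 in mock leaves. CYP71B28 (AT1G13090) had 761.3, 800.1 and 909.4 in paraquat leaves, against 676.4, 720.3 and 982.9 in mock leaves. Both had their highest signals at 4 h in either treatment.

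CYP71B34 (AT3G26300) had 348.4, 314.9 and 392 in paraquat leaves, against 324.7, 215.1 and 320.5 in mock leaves. CYP71B35 (AT3G26310), its neighbour on the chromosome, had 120.7, 94.4 and 121.5 in paraquat leaves, against 88.2, 52.9 and 99.8 in mock leaves. Both were lowest at 2 h in either treatment, and paraquat was above mock at each hour. CYP71B5 (AT3G53280) had 303.3, 296.8 and 346.4 in paraquat leaves, against 294.3, 260.2 and 272.8 in mock leaves, so that its lowest paraquat signal was just above its highest mock signal.

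CYP71B26 (AT3G26290) had 203, 263.9 and 417 in paraquat leaves, against 119.5, 126.1 and 433.3 in mock leaves. Paraquat leaves were higher at 1 and 2 h, and both treatments reached about the same level at 4 h. CYP71B22 (AT3G26200) had 170.2, 246.7 and 147.3 in paraquat leaves, against 154.6, 185.6 and 37.8 in mock leaves. The mock array of 4 h was the 1 array on which CYP71B22 fell below the floor. CYP71B29 (AT1G13100) had 217.8, 95.4 and 71.4 in paraquat leaves, against 215.5, 63.3 and 75.4 in mock leaves, high on both 1 h arrays and low later.

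CYP71B36 (AT3G26320) had 144.4, 123.4 and 115.6 in paraquat leaves, against 114.5, 149.8 and 170.8 in mock leaves, and the treatments changed places after 1 h. CYP71B24 (AT3G26230) had 117.9, 104.4 and 111.4 in paraquat leaves, against 134.7, 119.5 and 118.1 in mock leaves, so that every paraquat signal lay below every mock signal, by a narrow margin. The other 7 CYP71B genes never passed the floor. The highest signal was 54.9 for CYP71B27, a transcribed pseudogene in the gene table, 53.9 for CYP71B38, 28.7 for CYP71B25, 20.9 for CYP71B37, 19.2 for CYP71B16, 7.48 for CYP71B21 and 3.78 for CYP71B31, the last known from oxidation of the floral terpene linalool.

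**Figure D1:**
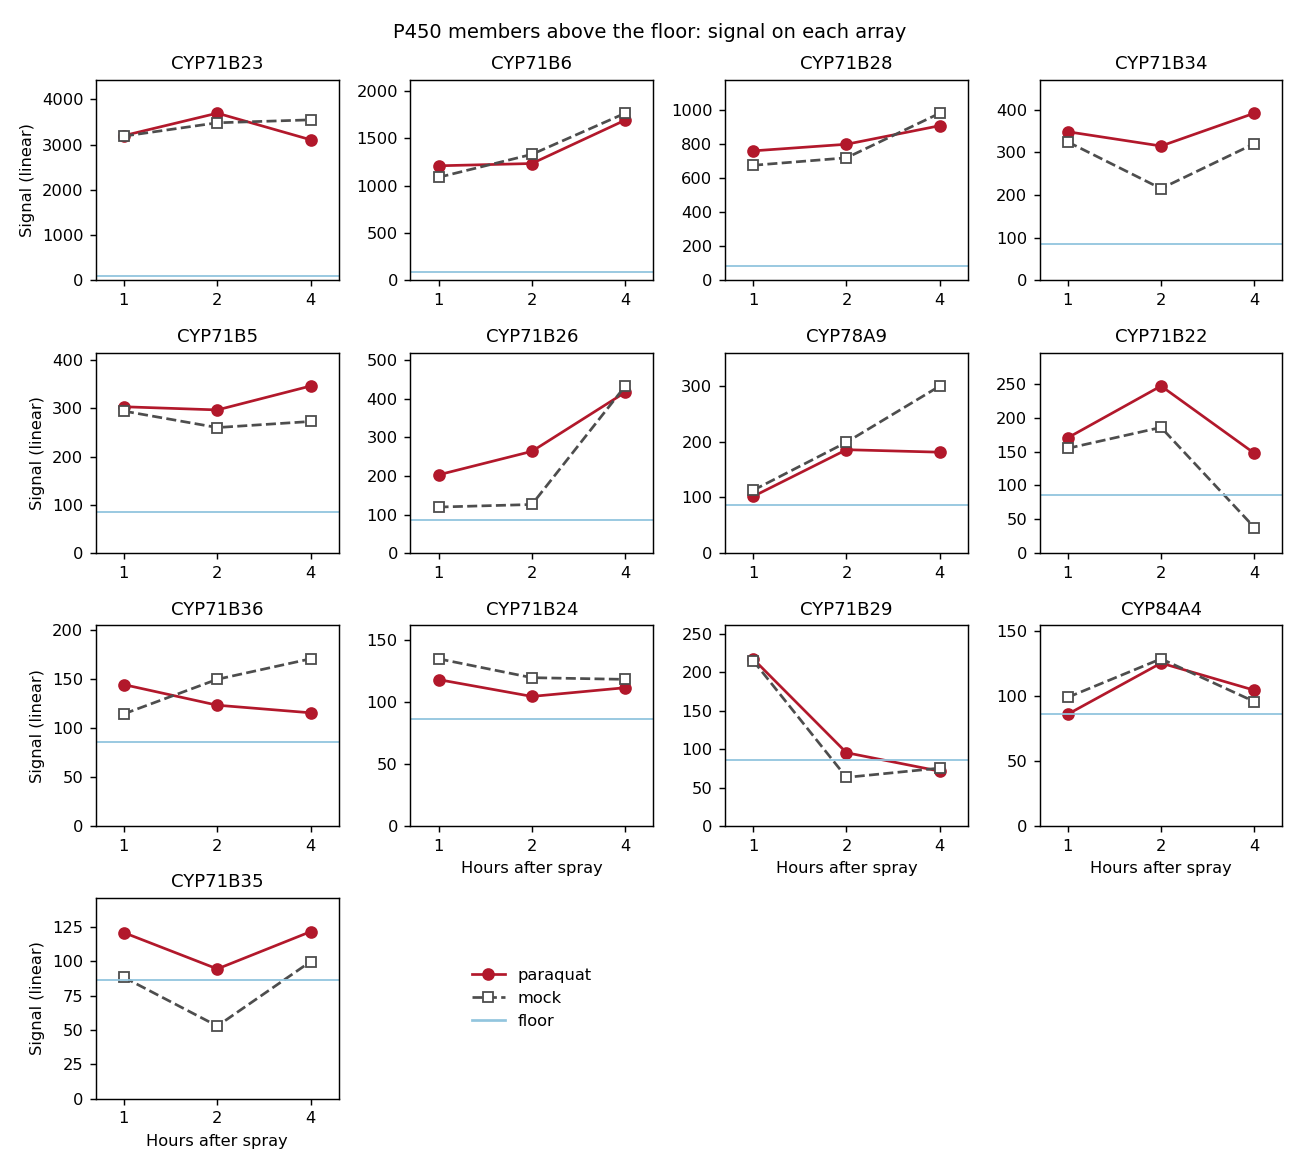
Signal (linear scale from 0, a separate axis for each gene) of the 13 P450 genes above the floor at the 3 harvest hours. Filled red points are paraquat arrays and open squares mock arrays, 1 array each; the blue line is the floor of 86.2, and CYP71B22 in mock leaves drops to 37.8 at 4 h.

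The first comparison set paraquat against mock leaves over the 3 hours. No P450 gene passed the test, and the mean log2 ratios of the 13 genes ran from -0.28 for CYP78A9 to 0.60 for CYP71B22. The ratio is paraquat minus mock on the scale log2(signal + 34), which understates the change of dim genes. The test was limma with harvest hour as a block, in which the 3 hours stand in for replicates, so that a change of the effect with hour counts as error. At an adjusted p under 0.05 it called 0 of the 13 genes, against 0.318% of the 13837 probe sets tested. At an unadjusted p under 0.05 it gave 4 of the 13, against 10.3% of all probe sets, and all 4 were higher with paraquat, against 5.85%. That count was 2 without the 1 h pair, 1 without the 2 h pair, 1 without the 4 h pair, 2 with centring on the 75th percentile, 1 of 9 with the floor on all 6 arrays, and 0 without the hour block or without the filter.

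Those 4 genes were CYP71B22, CYP71B26, CYP71B34 and CYP71B35. CYP71B22 had a mean log2 ratio of 0.60 ± 0.23 (moderated SE, n = 3 hours, limma adjusted p = 0.403). CYP71B26 had 0.49 ± 0.18 (limma adjusted p = 0.385). CYP71B35 had 0.37 ± 0.16 and CYP71B34 0.28 ± 0.12, with limma adjusted p of 0.476 and 0.483. Leaving out 4 h brought CYP71B22 to 0.23 and CYP71B26 to 0.76, and leaving out 2 h brought CYP71B26 to 0.29, CYP71B34 to 0.18 and CYP71B35 to 0.28. None of the 4 passed under any of these settings.

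The genes with the smallest errors had the narrowest intervals. These errors rest mostly on the variance of all tested probe sets, which counts for 6.26 degrees of freedom. The spread of the gene itself between hours counts for 2, and the spread between plants does not enter. The 95% interval of the mean log2 ratio ran from -0.23 to 0.17 for CYP71B23, from -0.23 to 0.22 for CYP71B6 and from -0.17 to 0.31 for CYP71B28. CYP71B5 had 0.17 ± 0.12 (interval -0.10 to 0.44) and CYP71B29 0.12 ± 0.16 (interval -0.25 to 0.49). On the lower side CYP78A9 had -0.28 ± 0.15 (interval -0.63 to 0.08). CYP71B36 had -0.14 ± 0.17, CYP71B24 -0.12 ± 0.14 and CYP84A4 -0.03 ± 0.15. Without the 4 h pair CYP78A9 had -0.10, and CYP71B24 was lower with -0.15.

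Paraquat was above mock at all 3 hours for 4 of 13 genes, CYP71B5, CYP71B22, CYP71B34 and CYP71B35, against 15.3% of all tested probe sets. It was below mock at all 3 hours for 2, CYP78A9 and CYP71B24, against 16.5%. Every paraquat array lay above every mock array for CYP71B5 (3.32% of all tested probe sets) and below for CYP71B24 (4.06%). The median of the mean ratios was 0.07 over the 13 genes and 0.12 over the 11 CYP71B genes among them, beside -0.01 over the 14878 probe sets that passed the floor on 1 array or more. Of the 13 mean ratios, 7 (53.8%) were above 0, beside 47.2% of those probe sets.

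At single hours there is 1 array per treatment, so values are given with no test. At 1 h the largest ratios were 0.63 for CYP71B26, 0.34 for CYP71B35, 0.26 for CYP71B36, 0.16 for CYP71B28 and 0.15 for CYP71B6. The lowest were those of CYP71B24 (-0.15), CYP84A4 (-0.15) and CYP78A9 (-0.11). The remaining 5 genes, CYP71B23, CYP71B29, CYP71B5, CYP71B34 and CYP71B22, lay between 0.00 and 0.11. In all, 10 of 13 genes were higher in paraquat leaves at 1 h, beside 7263 of all 14878 probe sets above the floor, and the median was 0.09, beside -0.01 for all probe sets above the floor. The 25S control was at 307.7 on the paraquat array and 124.3 on the mock array of 1 h, whose part in these ratios was not tested.

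At 2 h CYP71B26 led with 0.90, which in the plain signals is 2.09 times mock. CYP71B35 had 0.56, CYP71B34 0.49, CYP71B29 0.41 and CYP71B22 0.35. CYP71B36 had -0.22, CYP71B24 -0.15, CYP71B6 -0.11, CYP78A9 -0.09 and CYP84A4 -0.03. The mock signals of CYP71B35 and CYP71B29 at that hour were under the floor, so their ratios are uncertain. Of all probe sets above the floor, 1.25% had a ratio larger in size than that of CYP71B26 at 2 h and 8.23% one larger than that of CYP71B34. The median of the 13 genes was 0.15, beside 0.00 for all probe sets, with 8 genes higher, beside 7467 of 14878 probe sets.

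At 4 h CYP71B22 had a ratio of 1.34, or 3.89 times mock in the plain signals, the largest at any hour. It was 1 of 13 genes at least 2-fold higher, against 1.22% of all probe sets above the floor, and none was 3-fold higher on that scale, against 0.39%. The mock signal behind it is below the floor, and the 25S control was at 243.3 on the paraquat array and 92.8 on the mock array of that hour, whose part in the ratio was not tested. CYP71B5 followed with 0.31, CYP71B34 with 0.26, CYP71B35 with 0.22 and CYP84A4 with 0.09. CYP78A9 was lowest with -0.63, followed by CYP71B36 with -0.45, CYP71B23 with -0.19, CYP71B28 with -0.11 and CYP71B24 with -0.07. The median was -0.05, beside -0.02 for all probe sets, with 5 genes higher and 8 lower, beside 7036 and 7842 of the probe sets. On the log2(signal + 34) scale no member was at least 2-fold higher at 1 or 2 h, against 0.484% and 0.504% of probe sets, and none was 2-fold lower at any hour, against 0.343% at 1 h, 0.343% at 2 h and 0.524% at 4 h.

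**Figure D2:**
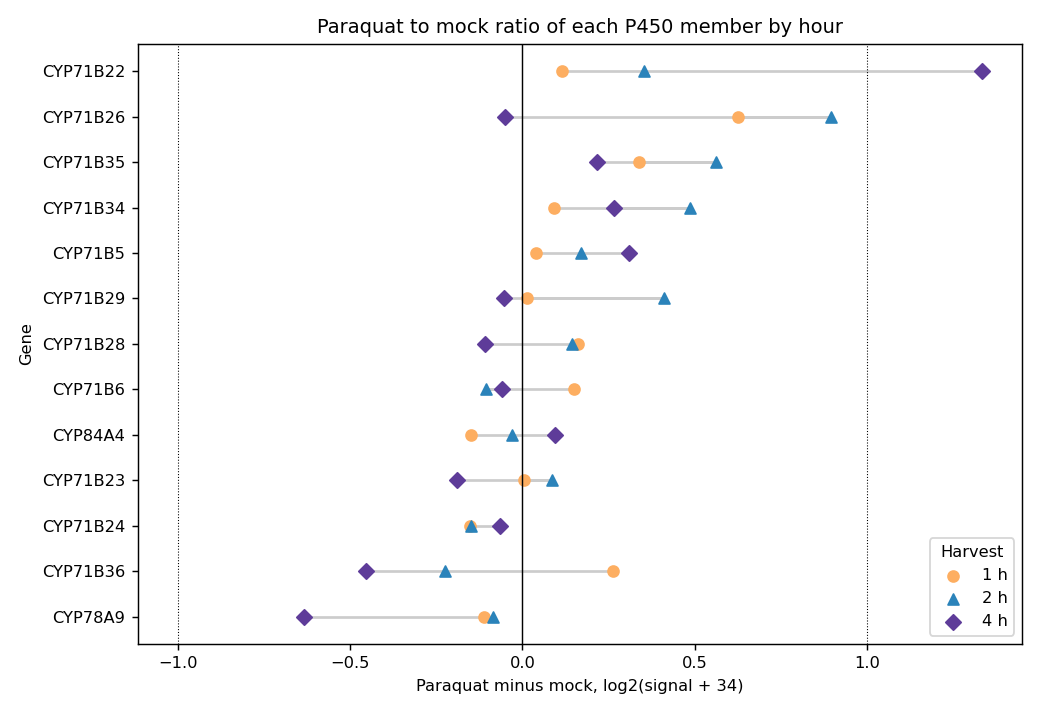
Paraquat minus mock ratio on the scale log2(signal + 34) of the 13 P450 genes at 1 h (circles), 2 h (triangles) and 4 h (diamonds), 1 array pair per point, genes ordered by their mean. Dotted lines mark 2-fold; only CYP71B22 at 4 h, with 1.34, lies beyond them.

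The second comparison asked whether the paraquat ratio changed with the hour, as a slope per doubling of time in limma. No gene passed at an adjusted p under 0.05, against 0.773% of all tested probe sets. At an unadjusted p under 0.05 the count was 1 of 13, against 12.2%. This was CYP71B22, with a slope of 0.61 ± 0.19 (moderated SE, limma adjusted p = 0.174) and an interval of 0.21 to 1.02. The mock signal of CYP71B22 at 4 h, 37.8, was under the floor. CYP71B36 had a slope of -0.36 ± 0.18 and CYP71B26 one of -0.34 ± 0.18, with limma adjusted p of 0.463 and 0.485. The other 10 slopes lay between -0.26 for CYP78A9 and 0.14 for CYP71B5. The test leaves 1 residual degree of freedom, so a changing effect and a deviant array cannot be told apart. Its errors rest mostly on the variance of all tested probe sets.

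The third comparison asked how the genes changed with the hour, in the same model as the averaged effect, with the paraquat and mock arrays of an hour standing in for replicates. CYP71B26, CYP78A9 and CYP71B6 were higher at 4 h than at 1 h and CYP71B29 was lower, and CYP71B26 and CYP71B22 differed between 4 and 2 h. The 4 h to 1 h calls are 4 of 13 P450 genes, beside 16.5% of all tested probe sets. By direction, the 3 higher genes stand beside 8.46% of probe sets and the 1 lower gene beside 7.99%. At an unadjusted p under 0.05 the counts were 6 of 13 for 4 h against 1 h (29% of all tested probe sets), 2 for 2 h against 1 h (20.1%) and 5 for 4 h against 2 h (23.9%). Each treatment and hour was 1 pooled sample, so hour and sample cannot be told apart. Of 4 guard cell marker genes 2 had a probe set naming the gene alone, with both above the floor. AT1G22690 was lower at 4 h than at 1 h by -0.78 ± 0.12 (limma adjusted p = 0.0039), while FMA had 0.01 ± 0.18. Their part in the hour results was not tested.

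CYP71B26 was higher at 4 h than at 1 h by 1.27 ± 0.22 log2 units (moderated SE, n = 2 arrays an hour, limma adjusted p = 0.0062). The 4 h to 2 h difference was 1.07 ± 0.22 (limma adjusted p = 0.022), and the 2 h to 1 h difference was 0.20 ± 0.22. The 4 h to 2 h call was lost without the filter and without the treatment term (limma adjusted p = 0.103 and 0.0831). Its signal at 4 h was 2.05 times that at 1 h in paraquat leaves and 3.63 times in mock leaves.

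CYP78A9 was higher at 4 h by 0.93 ± 0.19 (limma adjusted p = 0.012), a call lost without the filter (limma adjusted p = 0.0642). Its 2 h to 1 h difference of 0.68 ± 0.19 did not pass (limma adjusted p = 0.080). By 4 h its signal was 1.78 times that of 1 h in paraquat leaves and 2.66 times in mock leaves. CYP71B6 was higher at 4 h by 0.58 ± 0.12 (limma adjusted p = 0.013), with 1.40 times its 1 h signal in paraquat and 1.62 times in mock leaves. CYP71B28, with 0.38 ± 0.13, did not pass (limma adjusted p = 0.084). For these 4 genes the 4 h to 1 h ratio of signals was larger in mock than in paraquat leaves, a difference that did not pass the slope test for any of them.

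CYP71B29 was lower at 4 h than at 1 h by -1.22 ± 0.20 (limma adjusted p = 0.0044) and was the 1 P450 gene called for 2 h against 1 h, with -1.16 ± 0.20 (limma adjusted p = 0.013), where 5.92% of all tested probe sets were called. It entered the test through both 1 h arrays and the paraquat array of 2 h, and its other 3 signals were under the floor, so the size of the difference is uncertain. Without any filter the limma adjusted p was 0.0312 for 4 h against 1 h and 0.0776 for 2 h against 1 h, where the call was lost. The 1 h arrays, on which CYP71B29 was high, are also the 2 arrays with the highest 3' to 5' ratio of the first GAPDH control. The second GAPDH control did not have this order. Its 3' signal was below its 5' signal on the mock array of 1 h (7890 and 8804). On the paraquat array of 4 h it was above (9938 and 9821). The part of these ratios in the result was not tested.

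CYP71B22 was lower at 4 h than at 2 h by -1.12 ± 0.28 (limma adjusted p = 0.042), where 9.5% of all tested probe sets were called. Within treatments this was a difference of -0.63 in paraquat leaves and of -1.61 in mock leaves on the log2(signal + 34) scale. Against 1 h its difference at 4 h was -0.78 ± 0.28 (limma adjusted p = 0.099), made up of -0.17 in paraquat leaves and -1.39 in mock leaves. The mock signal at 4 h, 37.8, was under the floor, so the size of both differences is uncertain. Without the filter on low signals, without the variance trend or without the treatment term the 4 h to 2 h call was lost (limma adjusted p = 0.158, 0.0654 and 0.134).

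CYP71B34 and CYP71B35 had their lowest mean at 2 h, with no difference that passed. CYP71B34 had -0.33 ± 0.15 at 2 h against 1 h and 0.40 ± 0.15 at 4 h against 2 h, with limma adjusted p of 0.269 and 0.148. CYP71B35 had -0.38 ± 0.20 and 0.45 ± 0.20, with limma adjusted p of 0.328 and 0.210. CYP84A4 had its highest mean at 2 h, with 0.35 ± 0.18 and -0.26 ± 0.18 (limma adjusted p = 0.340 and 0.442). The 4 h to 1 h differences of CYP71B5, CYP71B23, CYP71B24, CYP71B34, CYP71B35, CYP71B36 and CYP84A4 lay between -0.11 and 0.10.

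**Figure D3:**
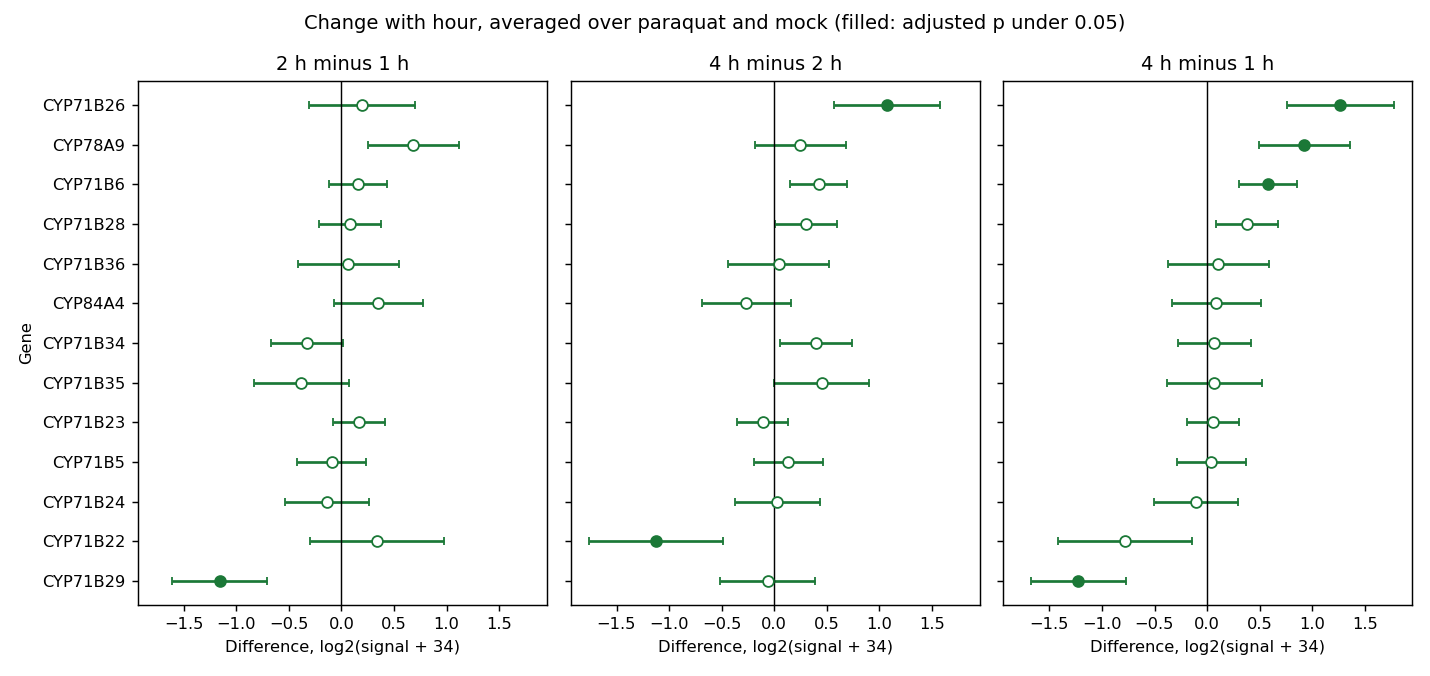
Differences between hours for the 13 P450 genes, averaged over paraquat and mock arrays, on the scale log2(signal + 34), with 95% intervals of the limma fit. Filled points passed at an adjusted p under 0.05: CYP71B29 in 2 h minus 1 h, CYP71B26 and CYP71B22 in 4 h minus 2 h, and CYP71B26, CYP78A9, CYP71B6 and CYP71B29 in 4 h minus 1 h.

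Within treatments, changes from 1 to 4 h were taken on the same log2 scale as the paraquat to mock ratios, with no test. In paraquat leaves CYP71B29 was the 1 gene at least 2-fold lower at 4 h than at 1 h, where 2.68% of all probe sets were. None was 2-fold higher on that scale, where 2.82% were. CYP71B26 had 0.93 on that scale in paraquat leaves, which in the plain signals is 2.05 times its 1 h signal. In mock leaves CYP71B26 and CYP78A9 were at least 2-fold higher (3.39% of all probe sets) and CYP71B22 and CYP71B29 at least 2-fold lower (3.72%). CYP71B36 had opposite signs, with -0.25 in paraquat and 0.46 in mock leaves.

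**Figure D4:**
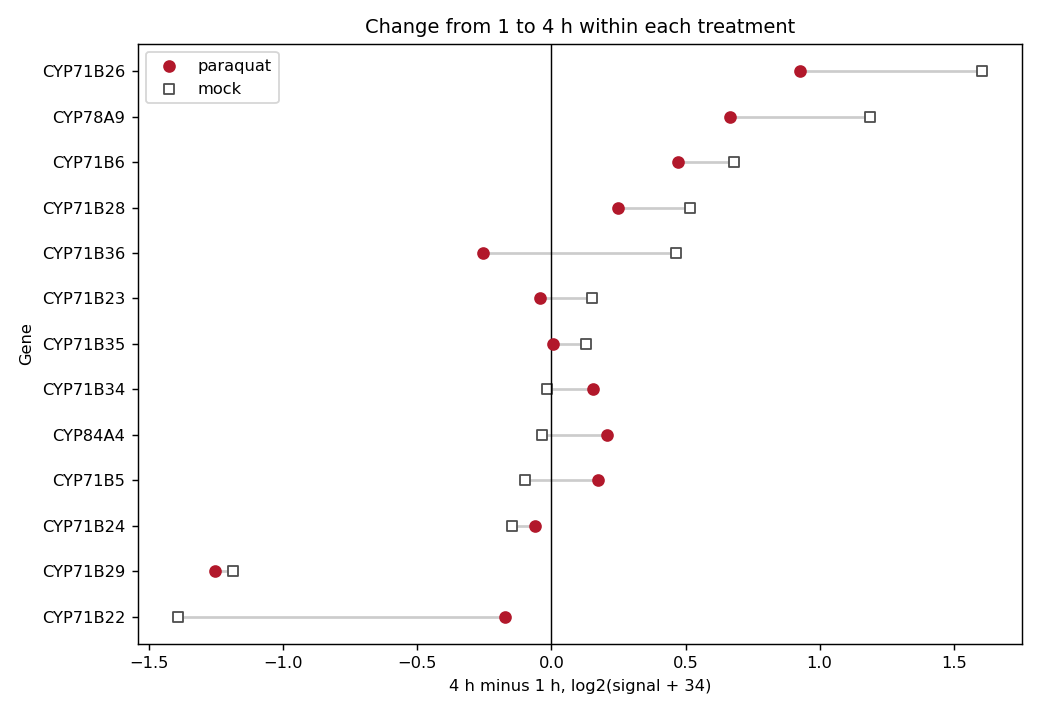
Change from 1 to 4 h within paraquat (red circles) and mock leaves (open squares) of the 13 P450 genes, on the scale log2(signal + 34), 1 array per point. CYP71B29 was lower at 4 h in both, and CYP71B22 had -0.17 in paraquat and -1.39 in mock leaves; the 4 h signals of CYP71B29 in both treatments and of CYP71B22 in mock leaves were under the floor.

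Position on the chromosomes was not used to choose the genes. In the gene order of TAIR10.1, 11 of the 22 members lie in a stretch of chromosome 3 between AT3G26150 (CYP71B16) and AT3G26330 (CYP71B37), which holds 25 genes, 18 of them P450 genes. A further 3, CYP71B27, CYP71B28 and CYP71B29, lie within 5 genes on chromosome 1, and CYP71B5 and CYP71B31 lie within 5 genes on chromosome 3. From AT3G26190 to AT3G26230, CYP71B21 (highest signal 7.48), CYP71B22, CYP71B23 and CYP71B24 stand in a row with 1 gene between the last pair, and of the 3 that were tested CYP71B22 alone passed, between 4 and 2 h.

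CYP71B34, CYP71B35, CYP71B36 and CYP71B37 follow each other with no gene between them. The first pair had mean paraquat ratios of 0.28 and 0.37 and their lowest signals at 2 h. CYP71B36 had -0.14, and the signals of CYP71B37 did not exceed 20.9. On chromosome 1, CYP71B28 and CYP71B29 are direct neighbours, and at 4 h against 1 h the first had 0.38 ± 0.13 and the second -1.22 ± 0.20. The 4 genes with an unadjusted p under 0.05 for paraquat were CYP71B22, CYP71B26, CYP71B34 and CYP71B35, against 10.3% of all tested probe sets. None of the 4 passed at an adjusted p under 0.05. All 4 lie in the stretch of 11, as do 7 of the 13 tested genes. The count at that unadjusted p was 1 or 2 when any 1 hour was left out. Close relatives of this kind can share probe sequence, and cross-hybridisation between them was not tested.

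A probe set for CYP71B19 and CYP71B20 of the same stretch names both genes and so stands outside the members. Its signals were 1842, 1711 and 1928 in paraquat leaves, against 1328, 1467 and 2074 in mock leaves. Its ratios of 0.46, 0.22 and -0.10 had a mean of 0.19 ± 0.12 (limma adjusted p = 0.643). It was higher with paraquat at 1 and 2 h and not at 4 h. The same signs were seen for CYP71B23 and CYP71B26 of the stretch and for CYP71B28 and CYP71B29 on chromosome 1. The pseudogene CYP71B30P, between CYP71B5 and CYP71B31, had signals of 1.38 to 6.53. CYP718, a P450 symbol without a subfamily letter, stayed between 2.93 and 4.87. CYP59 and CYP71 on this array are cyclophilin genes and not P450 genes.

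Genes that work with P450 enzymes were covered in small part. Of 44 genes in 4 lists of redox partners and of pathway genes that are not P450s, 2 had a probe set naming them alone, and none of the 7 redox partners did. HCT, an acyltransferase that feeds the phenylpropanoid P450 step, had 1197, 2557 and 2908 in paraquat leaves, against 1422, 2960 and 2221 in mock leaves. Its mean paraquat ratio was -0.02 ± 0.13 (limma adjusted p = 0.973), and it was higher after 1 h, with 1.06 ± 0.16 at 2 h against 1 h (limma adjusted p = 0.0083) and -0.11 ± 0.16 at 4 h against 2 h. UGT74B1, a glucosyltransferase of glucosinolate synthesis, had 1730, 1835 and 2287 in paraquat leaves, against 1914, 1894 and 2247 in mock leaves, with a mean ratio of -0.05 ± 0.09 (limma adjusted p = 0.884). Neither was called for paraquat. AT5G08250, given as CYP86B2 in the list of cutin and suberin P450s and not a member by its symbol, had 29.0, 15.9 and 3.90 in paraquat leaves, against 24.5, 29.6 and 36.1 in mock leaves, all under the floor.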

How the data were processed

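Total RNA was hybridised to Affymetrix ATH1 arrays, 1 for each treatment and hour. The authors deposited a linear intensity (signal) per probe set, made with MAS5 per the submitters' processing notes. The trimmed mean, leaving out 2% at each end, is 500.04 on every array. Depth has no meaning here, and the number of arrays limits the precision. Of 22810 probe sets, 64 controls were left out. Gene names come from the platform annotation, where 503 probe sets name several genes and 8730 none. Of 13513 naming 1 gene, 13436 matched the TAIR10.1 table.

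Signals were not normalised again. They were taken as log2(signal + 34), with 34 at the 25th percentile of all signals. Probe sets above 86.2 on at least 3 of 6 arrays, 13837 in all, entered linear models in limma 3.58.1 under R 4.3.3 (eBayes with trend, two-sided, Benjamini-Hochberg adjustment over all of them). Treatment and hour as a 3-level block left 2 residual degrees of freedom, and the slope with log2 hour left 1. The averaged-effect fit was tested on simulated data with a paraquat effect of 1 or 2 log2 units, the same at every hour. The simulated noise was drawn with the variance of the fit itself. Effects that change with hour were therefore not covered. Smaller effects were not covered either, and the largest mean ratio of a P450 gene was 0.60. With 1 pooled sample a group, p-values rest on the spread between hours or treatments, not between plants. For a single gene that spread is mostly taken from the variance of all tested probe sets.

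The genes named are all that passed a test, the 8 highest and 8 lowest mean ratios, the 5 highest and 5 lowest ratios at each hour and the 6 brightest, which together take in all 13 above the floor. The members, gene lists and tests were chosen with earlier results of these data known. Alternatives varied the normalisation, pseudocount, filter, variance model, terms and hours.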

Additional observations from a re-analysis of the deposited data

How the results depend on the processing

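No P450 gene passed the averaged paraquat test or the slope test under any alternative run. With each hour left out in turn, the averaged log2 ratio of CYP71B23 ran from -0.092 to 0.045, of CYP71B6 from -0.083 to 0.045, of CYP71B36 from -0.34 to 0.020, of CYP71B29 from -0.020 to 0.21 and of CYP84A4 from -0.089 to 0.032, so these signs turned. They did so without 4 h for CYP71B23, CYP71B6 and CYP71B36, without 2 h for CYP71B6 and CYP71B29, and without 1 h for CYP84A4. The 4 h to 2 h difference of CYP71B29, which was -0.064, turned to 0.020 under quantile normalization.

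Calls between hours were lost without the filter on low signals, where limma adjusted p was 0.064 for CYP78A9 (4 h against 1 h), 0.078 for CYP71B29 (2 h against 1 h) and 0.10 for CYP71B26 (4 h against 2 h). Without the treatment term CYP71B26 had limma adjusted p = 0.083 there. Of the P450 genes, 0 were called at 2 h against 1 h without the filter (3 unadjusted, at p under 0.05) or with the floor on all 6 arrays (1 unadjusted), where CYP71B29 was not tested. At 4 h against 2 h the limma count was 0 without the filter (5 unadjusted) and 0 without the treatment term (4 unadjusted), and 1, CYP71B26, with the floor on all 6 arrays or without the variance trend. At least 2-fold ratios numbered 1 at 2 h with a pseudocount of 8.5 (CYP71B26), and 0 at 4 h with a pseudocount of 136, with the floor on all 6 arrays or at 3-fold. Under another filter fewer or more probe sets enter. The cause of the lost calls was not tested.

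Over all tested probe sets the averaged test gave 44 calls, against 0 without the filter, 0 without the hour block, 1 without the trend, 7 without 1 h and 71 without 4 h. The slope gave 107, against 0 without the filter, without the trend or with hour as a line, and 227 to 337 with the floor on all 6 arrays, hours in place of log2 hours, quantile or 75th percentile scaling or a pseudocount of 136. Without the filter the counts between hours were 1342 in place of 2277 (4 h against 1 h), 298 in place of 819 (2 h against 1 h) and 368 in place of 1314 (4 h against 2 h). Without the treatment term the 2 h to 1 h and 4 h to 2 h counts were 482 and 796. The hour block pairs the arrays of an hour, and no pairing by replicate number was possible because each treatment and hour had 1 array.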
